A study of Mus musculus with 16 samples.

Results

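Six2, Eya1, Eya4, Sall1, Sall3, Sall4, Pitx1 and Isl1 are 8 transcription regulators of the urogenital and limb-forming mesenchyme. They were taken by gene symbol from a count table of 55228 symbols, in which each of the 8 has 1 row. RNA was sequenced from the mesenchyme of the lower urinary tract of embryonic day 16.5 mice, untreated wild-type embryos of the outbred CD-1 stock. Each of 4 litters gave 1 library each of male pelvic urethra, female pelvic urethra, male bladder and female bladder, so that there were 16 libraries and 4 per group. Every library is a pool of the embryos of 1 sex from 1 litter, and the embryos per pool are not given in the sources used here. Trypsin and forceps had been used to free the mesenchyme of its epithelium. The study set out to find genes that mark the bladder or the urethral compartment.

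Proteins of the Six-type are homeodomain transcription factors that bind DNA and recruit Eya proteins, which carry a phosphatase domain and act as coactivators. Sall proteins are zinc finger transcription factors, several of which repress genes through the NuRD complex, a histone deacetylase and chromatin remodelling assembly. In mouse kidney development Six2 holds nephron progenitors in an uncommitted state, and Eya1 and Sall1 are needed in the metanephric mesenchyme for the ureteric bud to grow out. Pitx1 is a paired-type homeodomain factor best known for giving the hindlimb its identity, and Isl1 is a LIM homeodomain factor of motor and sensory neurons that is also expressed in the mesenchyme around the cloaca, from which the bladder and urethra form.

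The compartments differed in opposite ways for Pitx1 and for the other members. Six2, Eya1, Eya4, Sall1, Sall3, Sall4 and Isl1 were each higher in the urethra in 8 of 8 pairs of libraries from the same litter and sex, and Pitx1 was lower in 8 of 8. The share of all genes with such runs, or with no overlap between the tissues, was not counted. Nothing is therefore read from either, here or below. The edgeR quasi-likelihood test with Benjamini-Hochberg adjustment over 18254 genes called 7 members higher in the urethra and Pitx1 lower, with a threshold of 0.05 on the adjusted p. Of all tested genes, 36.5% were called higher and 38.5% lower, so a call between these tissues is common in itself. The size of the differences stood further out. Log2 fold changes of the 7 members ran between 2.39 and 5.31 and ranked between place 31 and place 876 from the top of all tested genes, and Pitx1, at −2.93, ranked 209 from the bottom. The median over the 8 members was 3.57, beside −0.03 over all tested genes. In bulk tissue, fewer cells of a type and less RNA per cell cannot be told apart.

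Levels are given as CPM, counts relative to the scaled total of each library, and comparisons between genes as CPM per kb of the exonic length in the count table. Depth went with tissue, since urethra libraries held 24447435 to 29698009 counts and bladder libraries 18577097 to 22293812. Marker genes of other cell types, counted as summed CPM of a list, also went with tissue. All 13 neuron markers were higher in the urethra (1765 to 2919 CPM in urethra libraries, 53.29 to 494.4 CPM in bladder libraries), and Chat was the one of them with 0 counts in a bladder library. All 12 smooth muscle markers were lower in the urethra (2017 to 2662 CPM in urethra, 17130 to 22140 CPM in bladder). Of 13 skeletal muscle markers, 11 were higher and 2 lower in the urethra (132 to 241.2 CPM in urethra, 51.65 to 92.38 CPM in bladder), with Pax7, Mymk, Chrng and Chrna1 at 0 counts in at least 1 bladder library. All 9 glial markers (215 to 275.8 CPM in urethra, 65.67 to 124.2 CPM in bladder), all 7 genital and nephric duct markers (49.01 to 74.06 CPM in urethra, 2.793 to 19.29 CPM in bladder) and 6 of 7 endothelial markers (464.1 to 605.9 CPM in urethra, 276.5 to 430.8 CPM in bladder) were higher in the urethra. All 5 mesothelial markers were lower there (17.5 to 80.95 CPM in urethra, 428.8 to 838.9 CPM in bladder), and of 7 immune cell markers 3 were higher and 1 lower (104.2 to 130.2 CPM in urethra, 94.48 to 133.1 CPM in bladder). Epithelial markers remained in every library (566.9 to 1946 CPM in urethra, 1687 to 4406 CPM in bladder), and 9 of 13 were lower in the urethra. The labelled mesenchyme was checked with 10 fibroblast and mesenchyme markers, of which 4 were higher in the urethra, 5 lower and 1 not called. They summed to 10600 to 12970 CPM in urethra and 16510 to 20840 CPM in bladder. Their mean log2 CPM ran the other way, at 9.04 to 9.35 in urethra and 8.64 to 9.06 in bladder, with Pdgfra at a log2 fold change of 2.21 and Col1a1 at −1.16. What part these cell types have in the differences below was not tested.

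Promoter sequences from RefSeq are shown for Six2, Sall1 and Isl1, because a usable window was found for these members alone. RefSeq windows were matched for 4 of the 8 members, and that of Eya4 lay inside exons of the gene in the count table and is not printed. The stretches end at the base before the annotated start, on the minus strand of GRCm38.p6. Six2 is read from chr17:85688275-85688504, Sall1 from chr8:89044163-89044412 and Isl1 from chr13:116309690-116309938. Capitals mark CCAAT (or ATTGG on the other strand), the target of the NF-Y factor, and TAAT (or ATTA), the core that many homeodomain proteins bind, with TAATCC, the core preferred by Pitx-type homeodomains, where it occurs.
Six2: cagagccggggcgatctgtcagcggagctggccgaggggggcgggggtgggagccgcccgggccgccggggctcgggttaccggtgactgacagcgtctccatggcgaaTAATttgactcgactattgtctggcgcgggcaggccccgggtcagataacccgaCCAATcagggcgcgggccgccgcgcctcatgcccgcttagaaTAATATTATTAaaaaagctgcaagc
Sall1: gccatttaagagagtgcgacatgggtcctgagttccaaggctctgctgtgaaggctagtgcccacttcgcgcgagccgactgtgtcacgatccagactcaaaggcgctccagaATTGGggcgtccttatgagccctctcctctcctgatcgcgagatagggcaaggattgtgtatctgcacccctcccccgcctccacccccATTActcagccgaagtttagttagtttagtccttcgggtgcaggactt
Isl1: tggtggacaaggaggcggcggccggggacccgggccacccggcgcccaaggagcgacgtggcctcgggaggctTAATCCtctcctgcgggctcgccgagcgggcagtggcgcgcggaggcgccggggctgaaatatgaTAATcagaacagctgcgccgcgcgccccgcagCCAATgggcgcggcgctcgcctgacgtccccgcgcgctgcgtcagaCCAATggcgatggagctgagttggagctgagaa

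The stretch of Six2 held 1 CCAAT and 4 TAAT matches on both strands, 3 of them crowded near its end, where 2 ATTA matches share a base. Sall1 had 1 CCAAT and 1 TAAT match. Isl1 had 2 CCAAT matches and 2 TAAT matches, 1 of which lies inside its single TAATCC. None of the 3 held a TATAAA. Over 32851 RefSeq stretches of 250 bases before a start, 33.8% held CCAAT, 54.9% TAAT, 6.25% TAATCC and 12.4% TATAAA on either strand. The GC content was 64.8% in Six2, 56.4% in Sall1 and 71.1% in Isl1, against a median of 52.4% over all stretches. CpG dinucleotides were at 1.01, 0.658 and 1.06 times the number expected from base composition in Six2, Sall1 and Isl1, with a median of 0.373 over all stretches. These matches describe letters only.

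**Figure D1:**
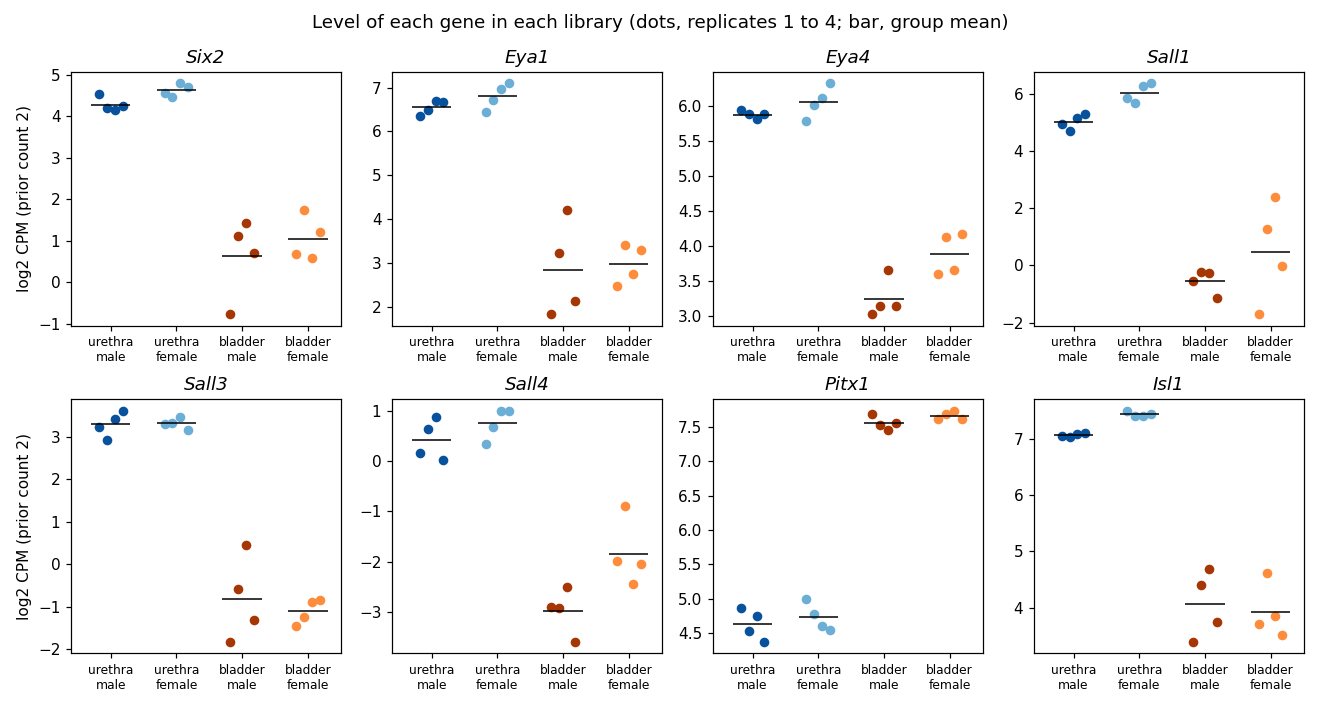
Log2 CPM (prior count 2, vertical axes) of each of the 8 genes in male urethra, female urethra, male bladder and female bladder (horizontal axis). Each dot is 1 library, and a bar marks the group mean of 4 libraries. Pitx1 sits between 7.46 and 7.74 in the bladder and between 4.38 and 4.99 in the urethra. The other 7 genes are high in the urethra and low in the bladder.

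Six2 (chromosome 17, 85684277 to 85688274, minus strand of GRCm38, as are all 8 members) had 23.2, 18.2, 17.8 and 18.9 CPM in male urethra and 23.5, 22.2, 27.7 and 26.0 CPM in female urethra, for litters 1 to 4. The bladder held 0.502, 2.09, 2.59 and 1.56 CPM in males and 1.51, 3.24, 1.42 and 2.23 CPM in females. Every urethra library thus lay above every bladder library, with means of 22.2 ± 3.66 CPM for urethra and 1.89 ± 0.835 CPM for bladder (SD over 8 libraries each). The log2 fold change was 3.54 ± 0.20 (SE; edgeR adjusted p = 1.77e-10), or 11.7-fold, and it was 3.52 in males and 3.57 in females.

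The coactivators Eya1 and Eya4 were both higher in the urethra, Eya1 by more. Eya1 (chromosome 1, 14168954 to 14310235), the Eya gene needed for kidney and ear formation in mouse, had 81.3, 89.5, 103.6 and 101.6 CPM in male urethra and 86.5, 104.8, 125.5 and 136.9 CPM in female urethra. In the bladder it had 3.46, 9.20, 18.5 and 4.30 CPM in males and 5.43, 10.6, 6.58 and 9.71 CPM in females. The tissues did not overlap, but the bladder libraries were widely spread, with male library 3 on top. On the log2 scale Eya1 rose by 3.60 ± 0.27 in the urethra (edgeR adjusted p = 1.53e-08), or 12.1-fold. The log2 difference was 3.39 in males, or 4.10 with male bladder library 3 left out, and 3.81 in females.

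Eya4 (chromosome 10, 23102963 to 23350786), whose loss of function in humans causes deafness, had 61.3, 58.6, 55.8 and 58.6 CPM in male urethra and 54.7, 64.3, 68.8 and 79.6 CPM in female urethra. It had 8.08, 8.76, 12.5 and 8.76 CPM in male bladder and 12.1, 17.5, 12.6 and 17.9 CPM in female bladder. Among the 7 members that were higher in the urethra it had the smallest difference, with a log2 fold change of 2.39 ± 0.11 (edgeR adjusted p = 8.23e-12), or 5.23-fold, and it also varied least between bladder libraries, with a coefficient of variation of 31%. The difference was 2.62 on the log2 scale in males and 2.15 in females.

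Sall1, Sall3 and Sall4 covered a wide range of levels, and all 3 were higher in the urethra. Sall1 (chromosome 8, 89027235 to 89044162) had 30.4, 26.1, 35.2 and 39.2 CPM in male urethra and 57.8, 50.6, 77.2 and 82.1 CPM in female urethra. In the bladder it was close to the detection limit in most libraries, at 0.602, 0.779, 0.741 and 0.376 CPM in males and 0.224, 2.33, 5.11 and 0.902 CPM in females. These bladder values rest on 12, 16, 16 and 7 counts in males and on 4, 41, 101 and 17 counts in females. Sall1 had the largest difference of the 8 members, with a log2 fold change of 5.31 ± 0.33 (edgeR adjusted p = 1.40e-09), or 39.7-fold. In males it was 5.68 and in females 4.94, or 5.89 with female bladder library 3 left out.

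Sall3 (chromosome 18, 80966376 to 80986771), a close relative of Sall1 needed for cranial nerves and the palate in mouse, was less abundant. It had 9.37, 7.59, 10.7 and 12.2 CPM in male urethra and 9.85, 10.03, 11.1 and 8.90 CPM in female urethra, and at most 1.30 CPM in any bladder library. Counts in the bladder were 4, 12, 28 and 6 in males and 5, 6, 9 and 9 in females. Sall3 rose by 4.33 ± 0.23 on the log2 scale (edgeR adjusted p = 4.07e-11), or 20.1-fold. In males it was 4.01, and 4.78 without male bladder library 3, and in females it was 4.65.

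Sall4 (chromosome 2, 168748332 to 168767943), a factor of embryonic stem cells and early limb buds, was the least abundant member in both tissues. Counts were 29, 42, 50 and 27 in male urethra and 37, 38, 59 and 57 in female urethra, against 1, 1, 2 and 0 in male bladder and 3, 8, 2 and 3 in female bladder. In CPM this came to 1.46 ± 0.386 for urethra and 0.134 ± 0.141 for bladder (SD over 8 libraries each). The log2 fold change of 3.73 ± 0.31 (edgeR adjusted p = 1.11e-08) rests on these few bladder counts and its size is loosely set. In males it was 4.57 (edgeR adjusted p = 6.65e-07), or 23.8-fold, on 4 counts in all male bladder libraries, and leaving out single libraries gave 4.23 to 5.11. In females it was 2.88, or 7.38-fold, and 3.49 without female bladder library 2, which held 8 of the counts. Sall3 and Sall4 passed the filter on low counts through their urethra libraries, since neither passed it in a fit of the bladder libraries alone.

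Pitx1 (chromosome 13, 55825051 to 55836192) was the one member lower in the urethra. It had 29.2, 23.1, 26.7 and 20.7 CPM in male urethra and 31.8, 27.4, 24.2 and 23.2 CPM in female urethra. Bladder libraries held 206.2, 183.9, 176.4 and 189.3 CPM in males and 195.8, 205.9, 213.5 and 196.1 CPM in females. The tissues stood far apart, and the bladder libraries were close together, with a coefficient of variation of 6.35%, the lowest of the members in that tissue. Pitx1 fell by 2.93 ± 0.08 on the log2 scale in the urethra (edgeR adjusted p = 1.51e-14), which makes its level 7.60-fold lower, and the log2 fold change was −2.92 in males and −2.93 in females. An antisense transcript on the opposite strand of Pitx1, Gm47071, was also lower in the urethra, with 1.26 CPM in urethra and 2.12 CPM in bladder (log2 fold change −0.82 ± 0.12, edgeR adjusted p = 8.18e-06). Counting was strand-specific, per the file headers.

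Isl1 (chromosome 13, 116298281 to 116309689) had 133.0, 131.5, 136.5 and 138.3 CPM in male urethra and 181.6, 170.3, 170.0 and 173.4 CPM in female urethra. It had 10.4, 21.2, 25.6 and 13.3 CPM in male bladder and 12.9, 24.6, 14.3 and 11.4 CPM in female bladder. The urethra values were tightly grouped within each sex, and none came near a bladder value. Isl1 rose by 3.20 ± 0.17 on the log2 scale (edgeR adjusted p = 2.58e-10), or 9.17-fold, with 2.93 in males and 3.46 in females.

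**Figure D2:**
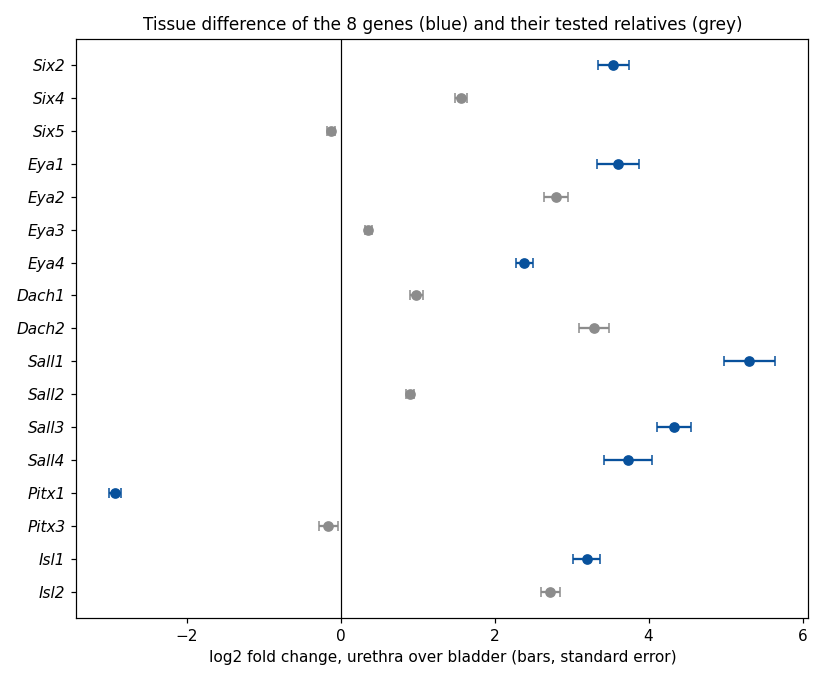
Log2 fold change of urethra over bladder (horizontal axis, bars show the standard error) for the 8 genes in blue and 9 tested relatives in grey. Sall1 is furthest to the right at 5.31, and Pitx1 is furthest to the left at −2.93.

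Within each sex the same calls were made. In males 7 members were called higher, beside 31.4% of all genes, and 1 lower, beside 32.6%. In females 7 were higher, beside 32.6% of all genes, and 1 lower, beside 33.1%. For the interaction of tissue and sex, edgeR called none of the 8 members, beside 0.668% of all genes. DESeq2 called none either, and its share of all genes was not counted. At an unadjusted edgeR p under 0.05 Eya4 and Sall4 were the members picked out, beside 8.38% of all genes. Their interaction terms, the log2 tissue difference of males minus that of females, were 0.46 for Eya4 (edgeR adjusted p = 0.56) and 1.69 for Sall4 (edgeR adjusted p = 0.579).

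Set against each other per length, Isl1 led in the urethra and Pitx1 in the bladder. In the urethra Isl1 was at 39.0 ± 5.37 CPM per kb (SD, n = 8) and did not overlap the next member. Eya1 at 13.3, Six2 at 10.5, Pitx1 at 9.71, Sall1 at 9.46 and Eya4 at 6.66 CPM per kb followed, each overlapping its neighbour in the order. Sall3 at 1.30 ± 0.185 and Sall4 at 0.265 ± 0.0697 CPM per kb closed it, both clear of the member above. In the bladder Pitx1 was at 73.8 ± 4.68 CPM per kb and Isl1 at 4.22 ± 1.54 CPM per kb, each clear of the next. The remaining members ran down through Eya4 at 1.30, Eya1 at 1.09, Six2 at 0.893, Sall1 at 0.263 and Sall3 at 0.0643 to Sall4 at 0.0243 CPM per kb, and every neighbouring pair among them overlapped. By sex, Sall1 in the urethra was at 6.21 ± 1.08 CPM per kb in males, where it overlapped Eya4, and at 12.7 ± 2.87 CPM per kb in females, where it overlapped Eya1 and Six2 (SD, n = 4 each).

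Further genes of these families and the Dach cofactors, which join Six-type and Eya proteins in 1 complex, were followed as a list of 11 relatives. Of the 9 that passed the filter, 7 were called higher in the urethra, beside 36.5% of all genes, 1 lower, beside 38.5%, and 1 not. Their median log2 fold change was 0.98. Dach2 (3.29 ± 0.20), Eya2 (2.80 ± 0.16), Isl2 (2.73 ± 0.12) and Six4 (1.56 ± 0.08) were more than 2-fold higher in the urethra, by these log2 fold changes. Dach1 (0.98 ± 0.09), Sall2 (0.90 ± 0.06) and Eya3 (0.36 ± 0.05) were higher by less. Pitx3 had a log2 fold change of −0.16 and was not called (edgeR adjusted p = 0.253). Six5, at −0.13 ± 0.05 (edgeR adjusted p = 0.0317), was called lower, but its difference is smaller than the shift of 0.14 by which scaling to library totals alone moves the median of all genes.

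The make-up of the Eya and Sall families also differed between the tissues. Of the summed CPM per kb of the Eya genes, Eya1 made up 35.9% in the urethra and 8.43% in the bladder, Eya4 made up 18.1% in the urethra and 10.4% in the bladder, and Eya3 made up 33% in the urethra and 75.8% in the bladder. Sall1 made up 33.3% of the Sall genes in the urethra and 2.64% in the bladder, with Sall2 at 60.8% in the urethra and 96.4% in the bladder. Within the urethra the Sall1 share was 23.9% to 31.8% in males and 34.8% to 42.4% in females. The sum of the Eya genes was 36.8 ± 4.17 CPM per kb for urethra and 12.5 ± 1.19 CPM per kb for bladder, and that of the Sall genes 27.3 ± 5.80 CPM per kb for urethra and 9.06 ± 1.24 CPM per kb for bladder (SD over 8 libraries each). In the Isl family 1 gene held most of the sum in both tissues, Isl1 with 90% in the urethra and 86.1% in the bladder.

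**Figure D3:**
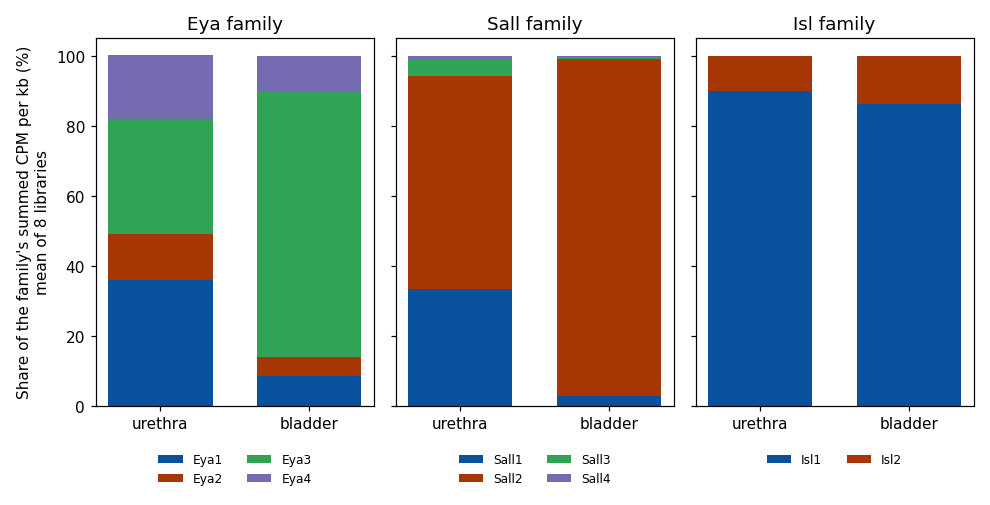
Mean share of each gene in the summed CPM per kb of its family, for the Eya, Sall and Isl genes (vertical axis, percent, stacked bars from 0 to 100) in the urethra (left bar) and the bladder (right bar), each a mean over 8 libraries. Eya1 and Sall1 take 35.9 and 33.3% in the urethra and 8.43 and 2.64% in the bladder, where Eya3 and Sall2 fill most of the bar.

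Genes that act with the members in kidney mesenchyme were mostly higher in the urethra. Of 18 genes of the nephrogenic and ureteric mesenchyme list, 12 were called higher, beside 36.5% of all genes, 1 lower, beside 38.5%, and 5 not, with a median log2 fold change of 0.95. Ret, the receptor of the ureteric bud, rose by 4.06 ± 0.39, its ligand Gdnf, whose expression in mouse kidney depends on Eya1, by 3.83 ± 0.18, and Osr2 by 3.59 ± 0.27 on the log2 scale. Tbx18, a ureteric mesenchyme factor, was the one gene that was lower (−0.56 ± 0.07). Not called were Osr1 (−0.02), Wt1 (−0.09), Cited1 (0.01), Hoxa11 (−0.09) and Tshz3 (0.04), which are named because they make up the rest of the list. Ret and its coreceptor genes are also expressed in enteric and other autonomic neurons, whose markers were higher in the urethra as given above.

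The lists of partners gave smaller differences. Of 12 NuRD subunits, through which Sall proteins repress, 4 were called higher, 4 lower and 4 not, with a median of −0.02, beside 36.5% of all genes higher and 38.5% lower. Mbd2 (−0.55 ± 0.03) and Rbbp7 (−0.59 ± 0.03) were the furthest from 0, while the call of Mta1 (0.13 ± 0.04) lies within the shift of 0.14 given above. Of 10 genes listed as cofactors of LIM homeodomain factors such as Isl1, 7 were called higher, beside the same 36.5%, 1 lower and 2 not. Their median was 0.40. Lmo3 (1.20 ± 0.11), Ldb2 (1.19 ± 0.06) and Ssbp2 (0.65 ± 0.05) were the highest and Rlim (−0.27 ± 0.05) the one lower.

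In the list of hindlimb and pericloacal patterning, 17 of 18 genes were tested, and 12 were called higher in the urethra, beside 36.5% of all genes, 2 lower, beside 38.5%, and 3 not, with a median log2 fold change of 0.86. Hand1 (3.64 ± 0.35), Msx1 (3.02 ± 0.14) and Hoxc10 (2.06 ± 0.14) were the highest. Tbx4, a hindlimb factor that acts downstream of Pitx1 in mouse, was called lower (−0.53 ± 0.11, edgeR adjusted p = 0.000386), as was Zbtb16 (−0.96 ± 0.21). Zbtb16 was called lower in females, at −1.87, but not in males, at −0.05 (edgeR adjusted p = 0.877), and within the urethra its log2 fold change of males over females was 2.30 ± 0.31 (edgeR adjusted p = 0.000234). From 9 genes that act with Sall4 in pluripotent cells, 5 were tested, with Sox2 (2.26 ± 0.20) and Lin28b (1.49 ± 0.19) called higher in the urethra, Klf4 (−1.53 ± 0.07) lower, and 2 not called.

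**Figure D4:**
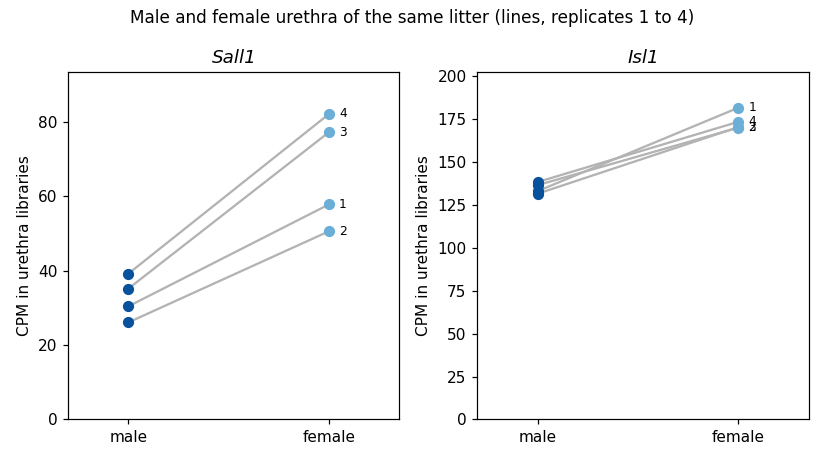
CPM in urethra libraries (vertical axes, linear, from 0) of male and female pools, joined by a line within each of the 4 litters. Sall1 lies at 26.1 to 39.2 CPM in males and 50.6 to 82.1 CPM in females, and each line of Sall1 and Isl1 runs up towards the female.

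The pools of each sex allowed males and females to be compared in each tissue. In the urethra the 4-group fit called none of the 8 members, beside 3.97% of all genes called higher and 2.42% called lower in males. DESeq2 called none of the 8 either, and its share of all genes was not counted. At an unadjusted edgeR p under 0.05 there was 1 member, Sall1, beside 19.2% of all genes. Sall1 was lower in male urethra in each of 4 litters, with log2 differences of −1.13 to −0.93, and its male values of 26.1 to 39.2 CPM did not overlap the female values of 50.6 to 82.1 CPM. The log2 fold change of males over females was −1.03 ± 0.33 (edgeR adjusted p = 0.0855). Isl1 was likewise lower in male urethra in 4 of 4 litters, at 131.5 to 138.3 CPM in males and 170.0 to 181.6 CPM in females, with a log2 fold change of −0.37 ± 0.22 (edgeR adjusted p = 0.391).

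Both genes were called when the urethra libraries were fitted alone, a choice made after the data had been seen. Sall1 then had −1.02 ± 0.17 (edgeR adjusted p = 0.00605) and Isl1 −0.35 ± 0.05 (edgeR adjusted p = 0.00127), beside 2.68% of all genes called lower in males. With the litter as a block in that fit they had −1.01 ± 0.06 (edgeR adjusted p = 9.62e-05) and −0.35 ± 0.05 (edgeR adjusted p = 0.00687), beside 2.62% of all genes called lower. Female bladder libraries, in which Sall1 counts ran between 4 and 101, share the spread estimate in the 4-group fit, and without female bladder library 1 or 3 the adjusted p of Sall1 in the urethra was 0.0323 or 0.0182. An exact two-sided permutation test of log2 CPM over the 4 male and 4 female urethra libraries gave p = 0.0286 for Sall1 and for Isl1, the smallest that 70 splits allow, and 0.153 when adjusted over 16 tests (8 genes in 2 tissues).

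Epithelial markers also differed between these pools, at 1841, 1444, 1600 and 1946 summed CPM in male urethra and 1645, 1587, 889.2 and 566.9 CPM in female urethra, for litters 1 to 4. Mesothelial markers did not overlap between the sexes, at 80.95, 72.53, 69.64 and 80.58 CPM in male urethra and 59.22, 65.29, 42.62 and 17.5 CPM in female urethra. Glial markers were lower in males in each litter (215, 238.3, 246.8 and 238.3 CPM, against 223.5, 275.8, 255.5 and 269.8 CPM in females). Neuron markers were lower in males except in litter 3 (1765, 2149, 2222 and 2011 CPM, against 1992, 2919, 2179 and 2756 CPM in females). Immune cell markers were at 104.2 to 119.5 CPM in males and 111.7 to 130.2 CPM in females. Without female urethra libraries 3 and 4, a choice made after the data had been seen, the log2 fold change of males over females in the urethra was −0.73 for Sall1 (edgeR adjusted p = 0.583), outside the −1.15 to −0.92 that leaving out single libraries gave, and −0.39 for Isl1 (edgeR adjusted p = 0.701). The part of RNA from the cell types named here in the differences between male and female urethra was not tested. Six2, Eya1 and Sall4 were lower in male urethra in 4 of 4 litters too, with log2 fold changes of −0.35, −0.27 and −0.33 that were not called. Without female urethra libraries 3 and 4 these were −0.23, −0.03 and −0.05. Those libraries were the highest of all urethra libraries in Six2, Eya1, Sall1 and Sall4. Leaving them out shrinks the difference of these genes by construction, so nothing is read from the smaller sizes, that of Sall1 included. The share of all genes with such runs of 4 litters, or with no overlap between the sexes, was not counted. Nothing is therefore read from these runs, those of Sall1 and Isl1 included. The log2 difference of male over female urethra was 0.00 for Sall3, −0.10 for Pitx1 and −0.19 for Eya4, none of them called.

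In the bladder the 4-group fit called no member between the sexes, beside 0.247% of all genes called higher and 0.334% called lower in males. At an unadjusted edgeR p under 0.05 there were 3, Eya4, Sall1 and Sall4, beside 12.4% of all genes. DESeq2 called 1, Eya4 (DESeq2 adjusted p = 0.00533), and the share of all genes that it called was not counted. The member nearest to a call was Eya4, which was lower in male bladder in 4 of 4 litters, with a log2 fold change of −0.65 ± 0.16 (edgeR adjusted p = 0.0679). Its highest male value, 12.5 CPM in library 3, overlapped the lowest female value of 12.1 CPM. Sall1 (−1.78 ± 0.66, edgeR adjusted p = 0.271) and Sall4 (−2.02 ± 0.74, edgeR adjusted p = 0.254) had larger differences on far fewer counts. Without female bladder library 3 that of Sall1 was −0.85 (edgeR adjusted p = 0.651), and leaving out single libraries gave −2.52 to −1.44 for Sall4. In CPM, Sall4 was lower in male bladder in 4 of 4 litters, with a highest male value of 0.0926 and a lowest female value of 0.101. Both of these come from litter 3, where each sex had 2 counts, so the order there comes from library scaling alone. The share of all genes with such runs in the bladder was not counted. Epithelial markers in these pools were at 3655 to 4406 CPM in male bladder and 1687 to 3445 CPM in female bladder, and immune cell markers at 94.48 to 110.9 CPM in male bladder and 115.4 to 133.1 CPM in female bladder, neither overlapping. The part of these cells in the differences was not tested. Pitx1 in the bladder differed between male and female libraries by little beside its spread, at 176.4 to 206.2 CPM in males and 195.8 to 213.5 CPM in females.

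Bladder libraries differed among themselves in these low genes, and some of the variation went with markers of other cells. Male bladder library 3 was highest in summed neuron markers, at 4.54 times the median bladder library. In that library Sall3 was at 3.25, Eya1 at 2.35, Isl1 at 1.85 and Six2 at 1.42 times their medians. Eya4 at 1.02 and Sall4 at 0.955 times their medians lay near the median over both sexes. Among male bladder libraries alone, library 3 was the highest in both, with 12.5 CPM of Eya4 and 2 counts of Sall4. Male library 2 followed in neuron markers at 2.03 times the median, with Isl1 at 1.53, Sall3 at 1.47, Eya1 at 1.17 and Six2 at 1.15. Female library 2, with neuron markers at 1.33, had more Isl1 (1.78), Six2 (1.77) and Eya1 (1.34) than male library 2. Sall1 did not follow the order of neuron markers, since its highest values were 6.73 times the median in female library 3 and 3.07 times in female library 2. Genital and nephric duct markers stood at 2.28 times their median in female library 3 and 0.8 times in female library 2. They were at 1.93 times in female library 4, where Sall1 was at 1.19, and at 1.38 times in male library 2, where Sall1 was at 1.02. Sall4 was highest, at 4.69 times the median, in female library 2. Pitx1 stayed between 0.9 and 1.09 times its median in all 8 bladder libraries. The part of neuron or duct cells in this spread was not tested.

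With male bladder libraries 2 and 3 left out, a choice made after the data had been seen, the log2 fold change of urethra over bladder was 4.25 for Eya1 and 4.99 for Sall3. In males alone it was 4.66 for Eya1, 5.30 for Sall3, 4.32 for Six2 and 3.57 for Isl1. For Sall4 it was 5.44, with 1 and 0 counts in male bladder libraries 1 and 4 and 1 and 2 counts in those left out. Leaving out libraries in which a gene was high raises its ratio by construction, so nothing is read from these sizes. All 7 members that were higher in the urethra and Pitx1 kept their calls.

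**Figure D5:**
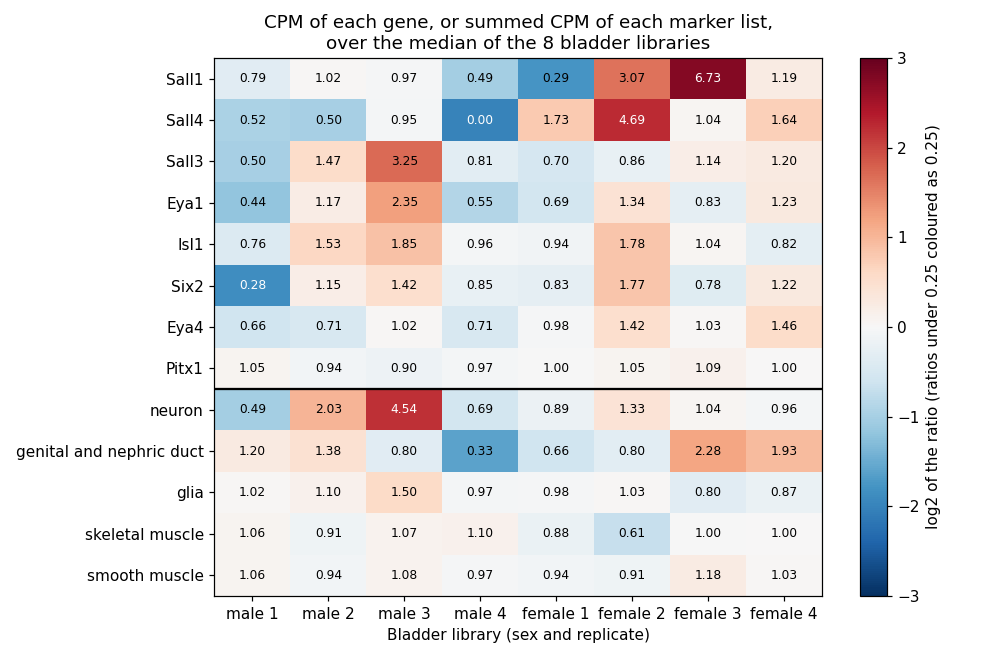
Ratio of each library's value to the median of the 8 bladder libraries (printed in each cell, colour by its log2) for the 8 genes and the summed markers of other cell types (rows) in 8 bladder libraries (columns). Male library 3 stands out in neuron markers (4.54), Sall3 (3.25) and Eya1 (2.35), female library 3 in Sall1 (6.73), and the Pitx1 row stays near 1.

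Genes with the most similar pattern over all 16 libraries were found by Pearson's r of log2 CPM. The libraries form 2 tissue clusters that also differ in depth, so r is given as a description. Close to Six2 were Ephb3 (0.993) and Isl2 (0.991), the LIM homeodomain relative of Isl1. Nearest to Eya1 were Scn3b (0.996), Dcx (0.995) and Gfra3 (0.995), which are known from neurons and glia, and nearest to Isl1 were Lix1 (0.995), Fez1 (0.994) and Sema4f (0.994). Nearest to Pitx1 were Myl9 (0.996), a smooth muscle myosin light chain, Tubb6 (0.996) and D830050J10Rik (0.996). Eya4 was closest to Gm47163 (0.993), Matn2 (0.992) and Nlgn3 (0.992), and Sall3 to Islr2 (0.994), Mgat5 (0.993) and Pik3c3 (0.993). Sall1 and Sall4 had looser matches, with Tmem151b (0.985), Plppr1 (0.984) and Ednra (0.983) for Sall1 and Egflam (0.982), Lrrtm4 (0.975) and Grin3a (0.975) for Sall4. Among the members themselves, Eya1 and Sall3 were most alike at 0.987.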

How the data were processed

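Per the submitters' processing notes, reads were aligned to GRCm38 with HISAT2 2.1.0 and counted with Subread 1.6.3. The deposited table holds counts of read pairs for each symbol, and per the file headers featureCounts made it with strand setting 2. Which GENCODE release was used is not given in the sources read here. A deposited table of signal, which the authors made by dividing counts by DESeq2 size factors per the submitters' processing notes, gave the same factors to within a relative deviation of 5.3e-15. Per the labels' protocols, poly(A) RNA was selected out of 250 ng and sequenced as 100 bp paired ends.

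The tests used edgeR 4.0.16 with limma 3.58.1, or DESeq2 1.42.0, under R 4.3.3. Python 3.11.15 with matplotlib 3.10.9 and pandas 2.3.3 served for figures. The edgeR quasi-likelihood test (TMM, filterByExpr, robust) was run on 16 libraries in a single model of the 4 groups without a litter term. Its contrasts were urethra over bladder overall and by sex, male over female by tissue, and the interaction. P-values were adjusted by Benjamini-Hochberg over 18254 genes, with a threshold of 0.05. Each standard error is an approximation, |log2 fold change| over √F. CPM use TMM-scaled totals, log2 CPM a prior count of 2, and lengths are those of the table. The fits were tested on simulated data.

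The labels give each replicate number as a litter, so libraries are paired. Deviations from the group means correlated between urethra and bladder of the same litter and sex at 0.0921 to 0.409. Their median was 0.194, and 7 of the 8 correlations were over 0.1. Urethra and bladder of the same sex but other litters had a median of −0.0646. Subtracting group means pushes that value below 0 when same-litter values are above it, so it adds no support. Male and female libraries of the same litter and tissue correlated at −0.0475 to 0.265, with a median of 0.123 and 4 of 8 over 0.1. A tissue's 8 libraries come from 4 litters, so n is a number of libraries and not of litters. No library was a copy of another of its group, with a chi-squared per degree of freedom of 4.71 to 36.7 in 24 pairs. The members and all 16 gene lists were chosen with earlier results of these data known. By rule, all 8 members were named, any called gene of lists of up to 13 genes could be, of longer lists the 3 highest and 3 lowest called log2 fold changes, and for likeness the 3 genes with the highest Pearson's r, except that results of some genes are not reported here. Alternatives were DESeq2 size factors in edgeR, library totals alone, no filter, DESeq2, blocks by litter or by litter and sex, each library left out, and fits without certain libraries or of 1 tissue alone, which were added after the data had been seen.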

Additional observations from a re-analysis of the deposited data

Results flagged for a closer look

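Eya4 in male bladder was picked out because 1 library lay far from the other 3. Male bladder library 3 had 12.5 CPM, while the others ran between 8.08 and 8.76 CPM, so that the gap to the nearest took up 0.846 of the group's range, above Dixon's critical value for 4 samples. Chance gives such a gap in about 1 of 20 groups, and 32 groups (8 genes in 4 groups) were examined. The same library had the highest neuron markers of all bladder libraries. Its Eya4 was at 1.02 times the median of the 8 bladder libraries, below female libraries 2, 3 and 4 at 1.42, 1.03 and 1.46 times. A link between the 2 was not tested.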

How the results depend on the processing

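The tissue calls of all 8 members, over both sexes and within each sex, were made under each of 24 alternatives, and with litter as a replicate block in the 4-group fit, which changed no call of a member, the log2 fold change of urethra over bladder was 5.35 for Sall1 and −2.93 for Pitx1. Between the sexes, 0 members were called lower in male urethra, but 2 (Sall1 and Isl1) when urethra libraries were fitted alone, with or without the litter block, and 0 to 1 when single libraries were left out. In male bladder 0 were called lower, but 1 (Eya4) with DESeq2, and 0 to 1 when single libraries were left out. The edgeR adjusted p of Eya4 was 0.0201 without male bladder library 3 and 0.0392 without female bladder library 1. The shares of all genes called with DESeq2, or with a library left out, were not counted.

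Signs of some uncalled differences turned, none of them called under any of these settings. As reported, male over female in the bladder was −0.30 for Six2, 0.15 for Eya1, 0.65 for Sall3 and 0.17 for Isl1, and the interaction was −0.05 for Six2, −0.42 for Eya1, 0.75 for Sall1, −0.65 for Sall3, 0.00 for Pitx1 and −0.53 for Isl1. Sall3 in male over female urethra, 0.00 as reported, was −0.016 with DESeq2 size factors, −0.016 with DESeq2 and −0.0092 with the litter block. Without the 2 bladder libraries highest in neuron markers, male over female in the bladder was −1.08 for Eya1, −0.60 for Sall3 and −0.43 for Isl1, and the interaction was 0.73 for Six2, 0.83 for Eya1, 0.62 for Sall3, −0.020 for Pitx1 and 0.083 for Isl1. Without female urethra libraries 3 and 4 the interaction was 0.066 for Six2 and −0.15 for Pitx1, and with no filter −0.0045 for Pitx1. Leaving out single libraries gave −0.11 to 0.11 for Sall3 in male over female urethra. In male over female bladder it gave −0.61 to 0.0031 for Six2, −0.52 to 0.42 for Eya1, −0.09 to 0.93 for Sall3 and −0.086 to 0.45 for Isl1. For the interaction it gave −0.33 to 0.27 for Six2, −0.67 to 0.27 for Eya1, −0.16 to 1.15 for Sall1, −0.91 to 0.11 for Sall3 and −0.080 to 0.10 for Pitx1. The cause was not tested.

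With library totals alone the median of all genes moved by 0.14 on the log2 scale between tissues, and group means became 62.1 CPM for Eya4 and 143 CPM for Isl1 in male urethra, 179.9 CPM for Isl1 in female urethra and 192 CPM for Pitx1 in female bladder. In the bladder, the few counts of Sall1, Sall3 and Sall4 limit the precision of every ratio that rests on them.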
